A study of Mus musculus with 5 samples.

Results

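The genes described here are 36 genes of oxygen sensing and glycolysis, chosen by name, out of 19736 genes with a column in any of the 5 deposited count tables. They comprise 6 oxygen-sensing genes, 15 glycolytic enzymes, 3 regulators of glycolysis and 12 other genes known as targets of hypoxia-inducible factors. Their molecules were read in liver cells depleted of hepatocytes. The mice were male and wild-type, and at 9 weeks of age had either a sham operation or a partial ligation of the inferior vena cava (pIVCL). Livers were sampled 2 weeks after surgery as 5 libraries, 2 sham (sham 1, sham 2) and 3 pIVCL (pIVCL 1, pIVCL 2, pIVCL 3), each labelled as coming from a single mouse. The ligation narrows the vein that drains the liver and is used as a model of hepatic congestion, so that the comparison with sham addresses how the liver's cells differ when its outflow is impeded. Both sham libraries and pIVCL 1 belong to batch 2021.3 and pIVCL 2 and pIVCL 3 to batch 2021.7, so batch and surgery overlap in part. The labels say nothing more about how separate the samples were, and p-values here rest on the spread of these libraries, which may be partly technical.

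Cells sense oxygen through prolyl hydroxylases (the Egln genes), which mark the alpha subunits of hypoxia-inducible factors (Hif1a and Epas1) for recognition by the von Hippel-Lindau protein (Vhl) and for degradation. When oxygen is short the alpha subunits persist, pair with Arnt and raise the transcription of glycolytic enzymes, of mitophagy genes such as Bnip3 and of the hydroxylases themselves. Because the alpha subunits are controlled mainly as proteins, their transcript level does not report their activity. In the liver, blood loses oxygen as it flows from the portal tract to the central vein, so that cells around the central vein are bathed in blood with less oxygen than cells around the portal tract.

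The factors bind the core letters ACGTG and GCGTG, and the 250 bases before each gene's RefSeq start (GRCm38.p6) were searched for both on both strands, counting a palindromic CACGTG once per strand. Of the 36 genes 32 had such a window, and Epas1, Bnip3l, Ndrg1 and Bhlhe40 did not. At least 1 match stood in 25 of the 32 windows (78.1%), against 38.6% of 27025 windows of all genes. ACGTG was in 46.9% of the members' windows and 16.6% of all windows, and GCGTG in 56.2% and 28.2%. Windows of Vhl, Hk1, Gpi1, Aldoa, Tpi1, Pkm and Mxi1 held neither. A match is a description of letters and does not show binding. Known targets of the factors are among the members by choice, so their larger share is no independent result. The windows of all genes were not matched for base composition, and a single window per gene was searched. The windows are shown for Ddit4, Gapdh, P4ha2 and Pkm, the genes with a window whose level differed between the zones of the sinusoid. They read 5′ to 3′ along the gene's strand, with matches on either strand in capitals:
Ddit4 (chr10:59951771-59952020, minus strand): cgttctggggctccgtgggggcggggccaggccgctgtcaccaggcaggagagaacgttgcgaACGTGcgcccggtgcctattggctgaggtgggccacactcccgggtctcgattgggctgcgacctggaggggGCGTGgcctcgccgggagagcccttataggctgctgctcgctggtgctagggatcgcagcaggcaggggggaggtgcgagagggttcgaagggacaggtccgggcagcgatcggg
Gapdh (chr6:125165774-125166023, minus strand): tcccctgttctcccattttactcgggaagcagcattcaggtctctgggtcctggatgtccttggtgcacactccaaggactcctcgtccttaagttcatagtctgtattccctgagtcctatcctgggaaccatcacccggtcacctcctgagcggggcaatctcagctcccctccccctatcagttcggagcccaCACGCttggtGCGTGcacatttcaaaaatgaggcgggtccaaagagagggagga
P4ha2 (chr11:54100674-54100923, plus strand): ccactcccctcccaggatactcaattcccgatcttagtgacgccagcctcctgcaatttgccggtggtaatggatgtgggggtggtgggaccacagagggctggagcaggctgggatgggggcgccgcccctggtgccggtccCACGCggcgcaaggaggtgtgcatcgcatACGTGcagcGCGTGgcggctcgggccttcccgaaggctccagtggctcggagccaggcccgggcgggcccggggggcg
Pkm (chr9:59656326-59656575, plus strand): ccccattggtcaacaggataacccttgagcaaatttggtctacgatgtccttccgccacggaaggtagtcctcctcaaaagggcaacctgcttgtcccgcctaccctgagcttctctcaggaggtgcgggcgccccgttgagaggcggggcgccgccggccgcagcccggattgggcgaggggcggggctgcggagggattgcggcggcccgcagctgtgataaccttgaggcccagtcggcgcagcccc
Ddit4 and Gapdh had 2 matches each, P4ha2 had 3 and Pkm had 0.

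The libraries held 12448260 to 30523228 molecules in 2680 to 5000 cells, and depth per cell was lower in pIVCL (medians of 2439.5 to 4226.5 molecules) than in sham (5125 and 5416). The 36 genes together made up 0.288 to 0.343% of a library's molecules before cells were filtered. In the cells kept they made up 0.305 and 0.298% in sham 1 and sham 2. In pIVCL 1, pIVCL 2 and pIVCL 3 they made up 0.348, 0.345 and 0.348%. The libraries mix cell classes in different shares, and this difference was not tested. After filtering, 16672 of 19815 cells were kept and clustered without these genes, and 9 cell classes were described from markers. Cells with too high a share of mitochondrial molecules to be kept made up 6.17, 5.52 and 2.09% of sham 1, sham 2 and pIVCL 1. In pIVCL 2 and pIVCL 3, the libraries of batch 2021.7, they made up 29.88 and 11.03%. Cells with too few genes to be kept numbered 109, 117 and 29 in sham 1, sham 2 and pIVCL 1. They numbered 617 and 261 in pIVCL 2 and pIVCL 3. Genes of dissociation and immediate-early response made up 0.503, 0.859, 0.587, 0.37 and 0.187% of endothelial molecules in sham 1, sham 2, pIVCL 1, pIVCL 2 and pIVCL 3, the order used for all series of 5 values below. Erythroid genes made up 0.0121, 0.00197, 0.00604, 0.0557 and 0.127% and hepatocyte genes 0.0364, 0.0162, 0.0637, 0.101 and 0.0552% in the same order, the erythroid share being higher in both libraries of batch 2021.7 than in the other 3 and the hepatocyte share highest in pIVCL 2. pIVCL 3 stood apart in its makeup, with 417 hepatocyte-like and 487 B cells against 4 to 44 and 16 to 83 in the other libraries. The part of these shares in the results was not tested.

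Across cell classes the 36 genes had no common order. Levels are molecules per 1000000 molecules of a class (CPM), given as mean ± SD over the 5 libraries, and since classes come from clustering they are described without a test. Dendritic cells and monocytes had the highest mean for 7 genes each, mesothelial cells for 5, endothelial and T cells for 4 each, and stellate cells with fibroblasts for 3. Ndrg1, a stress-response gene, was the only gene whose leading class, in its lowest library, lay above the highest library of every other class. Its level was 337 ± 68.2 CPM in mesothelial cells, 194 ± 42.9 in endothelial cells and 4.34 ± 2.94 in Kupffer cells.

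Of the oxygen-sensing genes, Epas1 had the widest spread between large classes. Its level was 804 ± 90.8 CPM in endothelial cells and 739 ± 269 in stellate cells and fibroblasts, which overlapped. Both stood apart from mesothelial cells (93.7 ± 43.6), Kupffer cells (31.7 ± 15.3), T cells (18.8 ± 9.5) and B cells (8.97 ± 8.64). Hif1a, the alpha subunit found in most tissues, was nearly flat, from 72.2 ± 6.6 CPM in endothelial cells to 46 ± 24.6 in B cells, and no neighbouring classes in that order were separated by their spread. Arnt, the shared beta subunit, ran from 64.9 ± 26.9 in monocytes to 30.8 ± 6.7 in conventional dendritic cells. Vhl was highest in conventional dendritic cells (63.8 ± 13.9) and 21.6 ± 3.81 in endothelial cells. Egln3, a hydroxylase that hypoxia itself induces, was at 81.7 ± 38.1 in mesothelial cells, 15.2 ± 16.1 in endothelial cells and 0.634 ± 0.729 in Kupffer cells.

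Glycolytic isozymes were divided between classes. Hk2, a hexokinase bound to mitochondria, was at 109 ± 24.2 CPM in Kupffer cells, 90 ± 24.5 in conventional dendritic cells and 6.5 ± 2.34 in endothelial cells, and no molecule was read in the 159 cholangiocytes. Aldoc was at 129 ± 41.1 in cholangiocytes and 0.322 ± 0.158 in endothelial cells, whereas its isozyme Aldoa ran from 669 ± 202 in mesothelial cells down to 319 ± 71.3 in endothelial cells. Pkm, pyruvate kinase, was at 454 ± 149.5 in monocytes and 227 ± 55.7 in endothelial cells. Pfkfb3, which makes the activator of phosphofructokinase, was at 92.6 ± 32.5 in conventional dendritic cells and 43.3 ± 4.54 in endothelial cells. P4ha1, a collagen prolyl hydroxylase subunit, was at 142 ± 47.3 in stellate cells and fibroblasts and 24 ± 14.3 in T cells. Monocytes, cholangiocytes and mesothelial cells numbered 15 to 57 per library, so their means carry wide errors. Copies of Gapdh, Tpi1, Pgk1, Pgam1 and Ldha elsewhere in the genome can share reads with them, and their levels are uncertain to that extent.

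**Figure D1:**
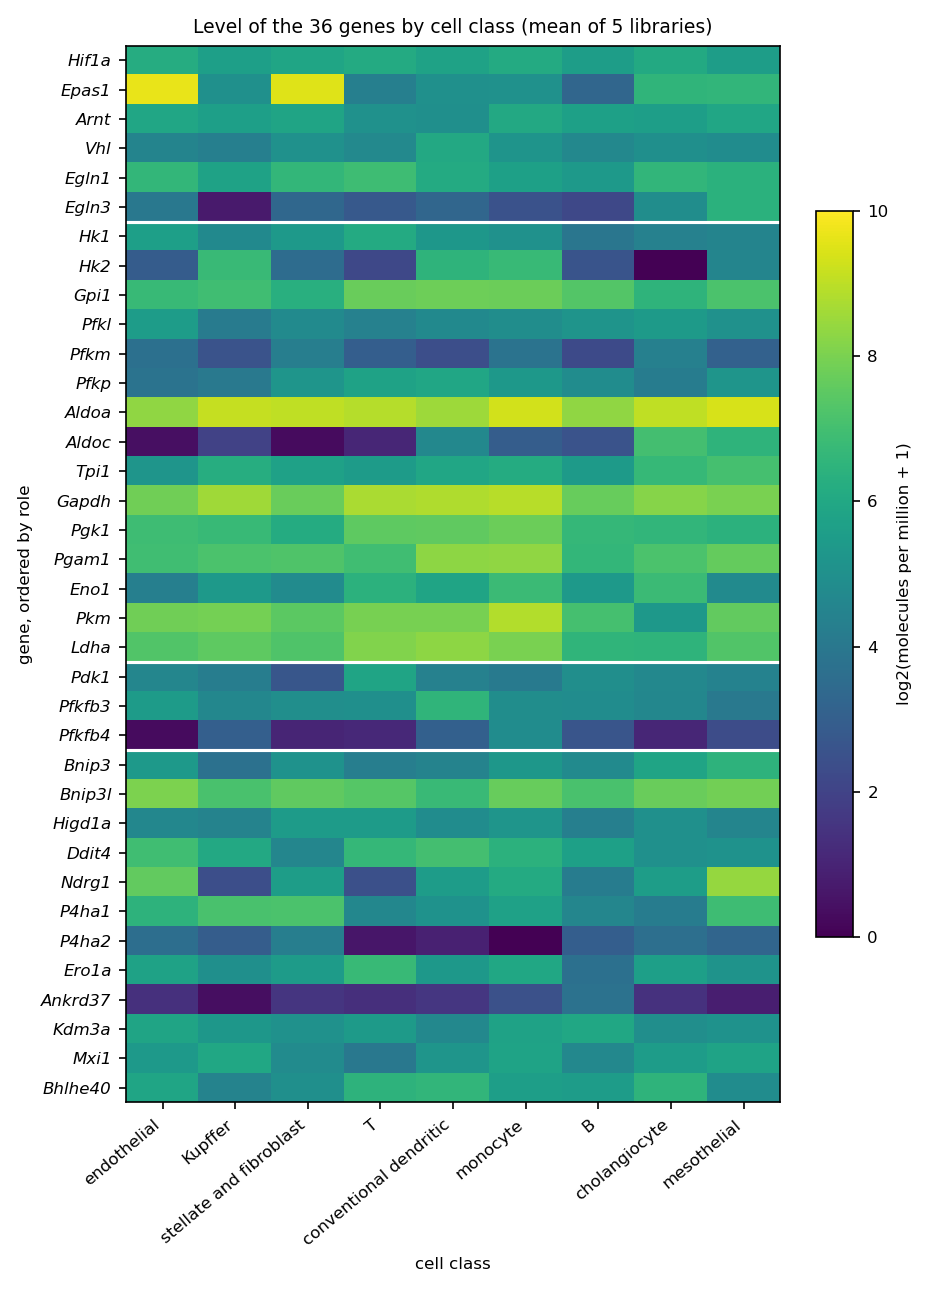
Level of the 36 genes in 9 cell classes as log2(CPM + 1), mean of 5 libraries, rows ordered by role (oxygen sensing, glycolytic enzymes, glycolytic regulators, other targets; white lines between). Epas1 is bright in endothelial cells and in stellate cells and fibroblasts only, and Hk2 is at 0 in cholangiocytes.

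Within the endothelial class the clusters differed as well. The values pool the libraries, which fill the clusters unequally. Ddit4, an inhibitor of mTORC1 signalling, was at 528 CPM in cluster 13 (led by Gja5 and Vwf, genes of large vessels), 330.0 in cluster 16 (led by Efnb1 and Efnb2) and 19.9 in cluster 9 (led by Kit and Wnt2). Pooling did not set this order: within each library Ddit4 was higher in cluster 13 than in cluster 16, and in the 4 libraries with at least 20 cells in cluster 9 it was the lowest of the 3 there. Epas1 was at 1142 in cluster 16, 1022 in cluster 13 and 357 in the cycling cluster 2, and clusters 16 and 13 changed places between libraries. Gapdh was at 529 in cluster 2, 201 in cluster 13 and 174 in cluster 16, with cluster 2 the highest of the 3 in each library. Clusters 8 and 9 held 690, 812, 108, 18 and 3 and 1013, 789, 77, 25 and 3 cells of the 5 libraries, and clusters 22 and 16 held 98, 124, 714, 811 and 314 and 215, 170, 236, 436 and 130. A level of the whole endothelial class therefore averages over different mixtures in sham and pIVCL.

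In endothelial cells as a class, no member passed the test between pIVCL and sham, although several lay above sham in each pIVCL library. Of 34 members tested by edgeR's quasi-likelihood test on molecules summed per library, 0 had an adjusted p under 0.05, against 4.66% of the 11580 genes tested. At an unadjusted p under 0.05 there were 10 (9 higher, 1 lower; 23.1% of all genes), and by DESeq2's Wald test 3 passed (Ddit4, P4ha1 and Pfkl, all higher; 9.2% of all genes). All pIVCL libraries were above both sham libraries for 14 members (26% of all genes) and below for 1 (16.5%). The median fitted log2 fold change was 0.099 for the members and 0.0052 for all genes. Aldoc and Pfkfb4 were too low to be tested.

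The transcripts of the factors themselves overlapped between groups. Epas1 was at 778, 710.2, 929.7, 862 and 738 CPM, and its fitted log2 fold change was 0.10 (95% interval -0.27 to 0.47, edgeR adjusted p = 0.749). Hif1a was at 69.9, 76.4, 75.3, 61.7 and 77.8 CPM (log2 fold change -0.12, interval -0.44 to 0.20). Arnt was at 57.8, 55.2, 56.6, 61.1 and 63 CPM. In each, at least 1 pIVCL library lay within or below the sham values.

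Vhl was at 19.7, 16.8, 20.9, 24.2 and 26.5 CPM, with every pIVCL library above sham (log2 fold change 0.29, edgeR adjusted p = 0.306). Egln1, the principal oxygen-sensing hydroxylase, was at 112, 106, 98, 81.7 and 84.1 CPM and was the member with every pIVCL library below sham (log2 fold change -0.39, SE 0.14, edgeR adjusted p = 0.145). Egln3 was at 5.11, 2.72, 5.05, 23 and 39.9 CPM. Its high values came from batch 2021.7 alone: pIVCL 1 stood between the sham libraries of its own batch, while pIVCL 2 and pIVCL 3 were far above (log2 fold change 2.35, SE 0.84, edgeR adjusted p = 0.18).

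Among glycolytic enzymes the 14 tested had a median log2 fold change of 0.15, with 8 fitted above 0 and 6 below. Pfkl, the liver-type phosphofructokinase subunit, was at 29.6, 31, 40.9, 54.1 and 68.1 CPM, and pIVCL did not overlap sham. Its log2 fold change was 0.74 (SE 0.19, edgeR adjusted p = 0.0661, the lowest of the members), and within batch 2021.3 pIVCL 1 was 1.35 times the sham mean. The other phosphofructokinase subunits, Pfkm and Pfkp, had log2 fold changes of -0.021 and -0.24.

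Aldolase Aldoa was at 261, 253, 291, 389.8 and 402 CPM and Pkm at 189, 174, 199.5, 270.0 and 302 CPM. Ldha, which turns pyruvate into lactate, was at 130.4, 121, 133, 174 and 212 CPM. All 3 were above sham in each pIVCL library, with log2 fold changes of 0.40, 0.41 and 0.36 and edgeR adjusted p of 0.163, 0.181 and 0.238. For each of them pIVCL 1 was close to sham, at 1.13, 1.1 and 1.06 times the sham mean of its batch. Gapdh, at 233, 227, 254, 194 and 213 CPM, overlapped and had its lowest values in batch 2021.7.

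Enolase needs its near-identical copy to be read. Molecules were assigned to Eno1 or to Eno1b in a split that followed batch: Eno1b took 30.7 to 32.3% of their sum in endothelial cells of the 3 libraries of batch 2021.3 and 85.5 and 83.1% in batch 2021.7. Eno1 alone is therefore uncertain in every class. Their sum in endothelial cells was 26.3, 31.8, 45.7, 60.3 and 86.1 CPM, above sham in each pIVCL library. In a fit added after the data were seen, the log2 fold change of the sum was 1.03 (edgeR adjusted p = 0.0513), against -0.17 for Eno1 alone.

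Among other targets, Ddit4 was at 48.4, 88.3, 127, 210.1 and 131 CPM, with no overlap between groups (log2 fold change 1.11, SE 0.34, edgeR adjusted p = 0.126). In the sinusoidal clusters alone, a selection made after the data were seen, the log2 fold change was 1.63 (edgeR adjusted p = 0.0585). P4ha1 was at 61.3, 73.4, 93.7, 100.2 and 109.7 CPM (log2 fold change 0.50, SE 0.13, edgeR adjusted p = 0.076), and pIVCL 1 was 1.39 times the sham mean of its batch. The mitophagy receptor Bnip3 was at 34.8, 33.3, 48.7, 45.8 and 46.5 CPM and its relative Bnip3l at 219, 229, 290.2, 284 and 266 CPM.

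Bnip3 and Bnip3l did not overlap between groups and were as high in pIVCL 1 as in the other pIVCL libraries, with log2 fold changes of 0.38 and 0.24 (edgeR adjusted p = 0.133 and 0.295). Ankrd37, a sparse transcript, had 10, 7, 14, 20 and 8 molecules, or 0.664, 0.56, 1.96, 2.5 and 2.28 CPM (log2 fold change 1.77, edgeR adjusted p = 0.0913). Mxi1, a Myc antagonist, was at 32.1, 29.3, 37.4, 53 and 51 CPM (log2 fold change 0.53, edgeR adjusted p = 0.117). Ndrg1 was at 220.2, 218, 235, 141 and 153 CPM: pIVCL 1 was above both sham libraries of its batch and the libraries of batch 2021.7 were below them.

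Of the regulators of glycolysis, Pfkfb3 was at 41.3, 40, 51.3, 42.1 and 41.9 CPM, above sham in each pIVCL library (log2 fold change 0.073, edgeR adjusted p = 0.813). Pdk1, the kinase that turns off pyruvate dehydrogenase, was at 22, 20.5, 25.8, 23.9 and 21.9 CPM and overlapped.

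The remaining targets gave the lowest fitted value of all members in P4ha2, at 14.4, 13.5, 14.2, 7.49 and 6.55 CPM (log2 fold change -0.61, SE 0.33, edgeR adjusted p = 0.305). Its partner gene P4ha1 lay on the other side of sham, and for P4ha2 pIVCL 1 lay between the sham libraries while both libraries of batch 2021.7 were lower. Kdm3a, which demethylates histones, was at 49.2, 53.1, 58, 53.6 and 67.8 CPM, above sham in each pIVCL library (log2 fold change 0.13, edgeR adjusted p = 0.581). Higd1a, Ero1a and Bhlhe40 overlapped, with log2 fold changes of -0.25, -0.20 and 0.06.

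pIVCL 1 decided how many members passed. Without it, 13 did (8 higher, 5 lower, against 21% of all genes), namely Aldoa, Ankrd37, Egln1, Egln3, Eno1, Higd1a, Ldha, Mxi1, Ndrg1, P4ha1, P4ha2, Pfkl and Pkm. Every sham library is then of batch 2021.3 and every pIVCL library of batch 2021.7, and surgery and batch cannot be told apart. With batch as a term, or within batch 2021.3 alone, 0 passed. From the list of 40 other genes of the pathway 28 were tested in endothelial cells and 2 passed, both higher. Adm, the vasodilator peptide adrenomedullin, was at 35.8, 55.5, 179.7, 144 and 178 CPM (log2 fold change 1.78, SE 0.21, edgeR adjusted p = 0.00891). Slc2a1, the glucose transporter GLUT1, had 20, 23, 40, 40 and 49 molecules, or 1.33, 1.84, 5.61, 5 and 14 CPM (log2 fold change 2.20, edgeR adjusted p = 0.0497). For both, pIVCL 1 lay above sham within its batch, at 3.94 and 3.54 times the sham mean.

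**Figure D2:**
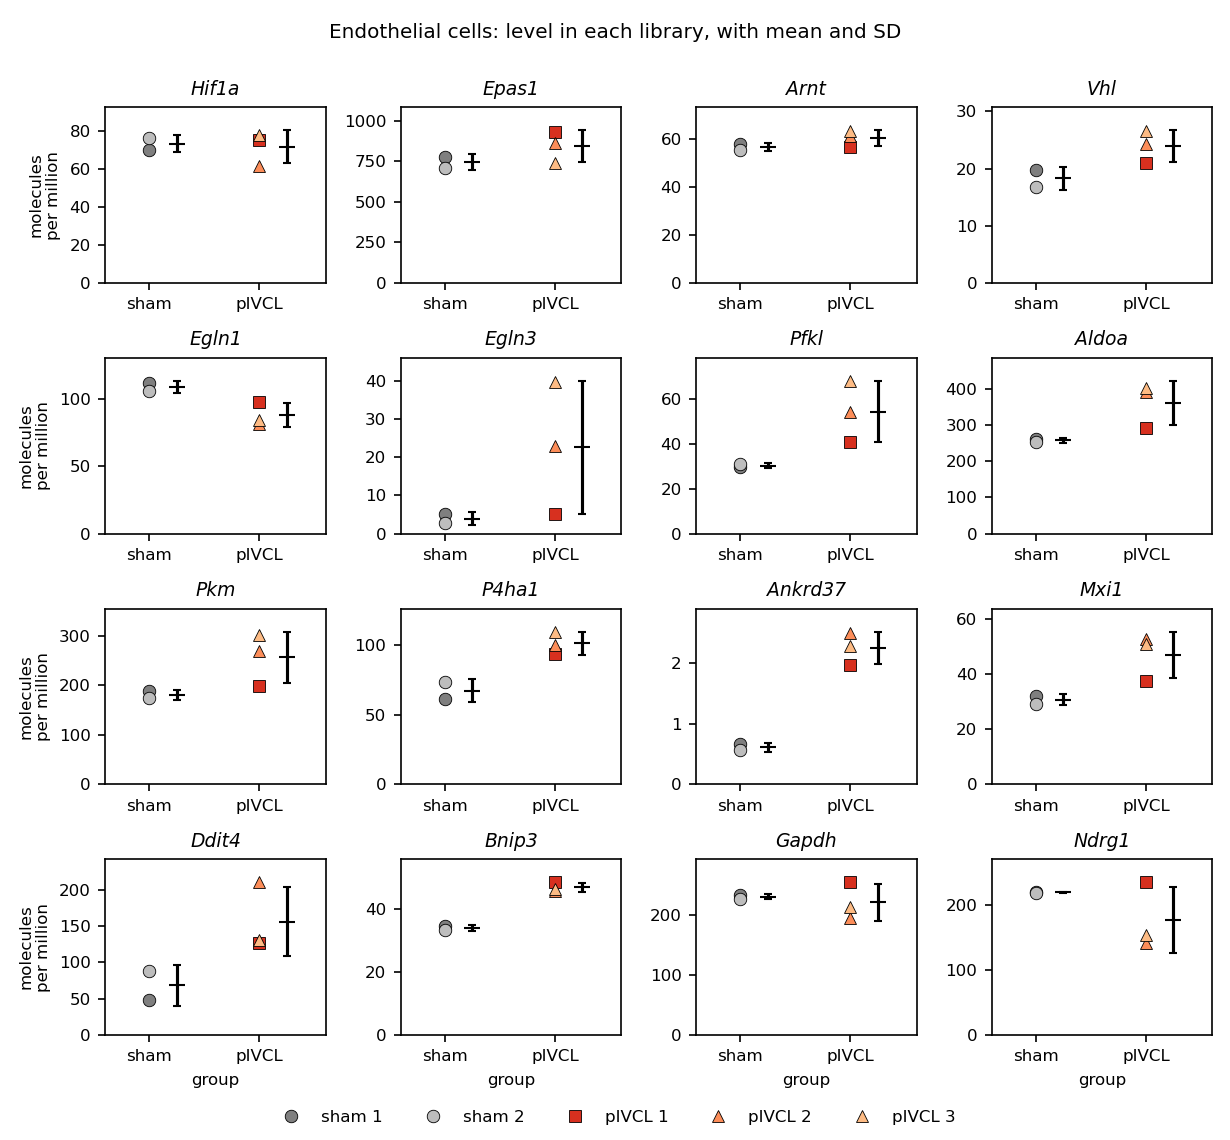
Level of 16 genes in endothelial cells of each library, in CPM from 0, with group mean and SD beside the points; circles are sham, the square is pIVCL 1 (batch 2021.3, as sham) and triangles are pIVCL 2 and pIVCL 3 (batch 2021.7). Vhl, Pfkl, Aldoa, Pkm, P4ha1, Bnip3, Mxi1, Ankrd37 and Ddit4 lie above sham in every pIVCL library, as do 26% of all genes. Egln1 lies below, as do 16.5% of all genes, and for Egln3 only the triangles are high.

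In Kupffer cells, the resident macrophages of the liver, Ddit4 had the largest fitted change of the members. It was at 6.33, 22.7, 116, 115 and 63.9 CPM, 49, 95, 179, 254 and 148 molecules, and pIVCL 1 alone was 7.97 times the sham mean of its batch. All pIVCL libraries lay above sham, and the sham libraries themselves were far apart. The fitted log2 fold change of 2.81 (SE 0.68, interval 0.97 to 4.66) did not pass (edgeR adjusted p = 0.25).

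Of 33 members tested in Kupffer cells 0 passed by edgeR, against 0.051% of 9799 genes, and 1 (Ddit4, higher) by DESeq2. At an unadjusted p under 0.05 there were 5 (14.2% of all genes): Ddit4, Ldha and P4ha1 in the higher direction and Gapdh and Bhlhe40 in the lower. No overlap was seen for 6 members above sham (17.4% of all genes) and 3 below (14.5%). Ldha was at 148, 158, 187, 195 and 237 CPM (log2 fold change 0.40, edgeR adjusted p = 0.265) and Gapdh at 429, 439, 377, 308 and 346 CPM (log2 fold change -0.36, edgeR adjusted p = 0.277). These 2 enzymes of the same pathway thus stood on opposite sides of sham in each pIVCL library. Bhlhe40, a transcriptional repressor, was at 32.1, 22.3, 16.2, 24.4 and 12.1 CPM and overlapped.

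P4ha1 in Kupffer cells was at 120.5, 117, 137, 141 and 169.6 CPM (log2 fold change 0.31, edgeR adjusted p = 0.346). Of the abundant members, Aldoa (471, 508, 518, 622 and 653 CPM) and Pkm (221, 205, 214, 285 and 279 CPM), had log2 fold changes of 0.26 and 0.26. Pgam1 and Bnip3l had log2 fold changes of -0.15 and 0.065. The oxygen-sensing genes Hif1a, Epas1, Arnt, Vhl and Egln1 had log2 fold changes of -0.22, 0.54, 0.26, 0.27 and -0.18 with edgeR adjusted p from 0.508 to 0.702. Egln3 was too low to be tested. Of 22 other pathway genes tested 0 passed by edgeR and 5 had an unadjusted p under 0.05. Without pIVCL 1, only Eno1 passed, the gene whose reads divide with its copy by batch. Most Kupffer cells of sham lay in cluster 5 (682 and 402 cells) and those of pIVCL 3 in cluster 17 (203 against 174). In cluster 5 alone the log2 fold change of Ddit4 was 2.97 (edgeR adjusted p = 0.152).

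In stellate cells and fibroblasts, the vitamin A-storing and matrix-forming cells of the liver, P4ha2, Epas1 and P4ha1 had the largest fitted changes of the members, and none of them passed. Epas1 was at 547, 380.5, 1039, 905 and 821 CPM, with every pIVCL library above sham and pIVCL 1 at 2.24 times the sham mean of its batch. Its log2 fold change of 1.11 (SE 0.24) did not pass by edgeR (adjusted p = 0.0977). It passed with batch as a term (log2 fold change 1.27, edgeR adjusted p = 0.0446), within batch 2021.3 alone (1.28, adjusted p = 0.0113) and by DESeq2 (adjusted p = 0.00646). Batch 2021.3 holds a single pIVCL library, which is assumed there to vary like sham, so that value has no replicate of its own.

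The difference in Epas1 was smaller in the stellate cluster alone, at 0.67 (edgeR adjusted p = 0.16), a selection made after the data were seen. That cluster held 82, 34, 273, 325 and 108 cells and the fibroblast cluster 20, 46, 30, 17 and 21, so fibroblasts were a larger share of the class in sham. Endothelial markers, whose cells also carry high Epas1, made up 0.466, 0.322, 0.0847, 0.4 and 0.376% of the class's molecules and were lowest in pIVCL 1. Their part in the difference was not tested.

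P4ha1 in stellate cells and fibroblasts was at 121, 67.9, 174, 179.8 and 166 CPM (log2 fold change 0.99, SE 0.26, edgeR adjusted p = 0.142). P4ha2, the alternative alpha subunit, was at 12.4, 7.15, 27.8, 19.1 and 26.5 CPM (log2 fold change 1.41, edgeR adjusted p = 0.189). Both were without overlap, and in the stellate cluster alone their log2 fold changes were 1.00 and 1.42. Ero1a, an oxidase of the endoplasmic reticulum, was at 35.5, 33.9, 49.2, 50 and 51.8 CPM (log2 fold change 0.65, edgeR adjusted p = 0.304). Ndrg1 was at 64, 57.2, 42.9, 30.9 and 36.2 CPM, with every pIVCL library below sham (log2 fold change -0.61, edgeR adjusted p = 0.339).

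In all, 31 members were tested in stellate cells and fibroblasts, and 0 passed by edgeR (0.527% of 8914 genes did). At an unadjusted p under 0.05 there were 5 (13.6% of all genes), the genes just given, and by DESeq2 Epas1 passed. Members without overlap numbered 6 above sham (12.6% of all genes) and 4 below (22.5%). Of the other oxygen-sensing genes, Hif1a, Arnt, Vhl, Egln1 and Egln3 had log2 fold changes of -0.25, -0.05, -0.34, 0.59 and -0.56. The abundant members Aldoa, Gapdh, Bnip3l, Pkm and Ldha had 0.44, -0.032, 0.0039, 0.46 and 0.38. From the other pathway genes 1 of 21 passed: Adm, at 51.5, 94.7, 449, 416 and 458 CPM (log2 fold change 2.70, SE 0.28, edgeR adjusted p = 0.0133).

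In conventional dendritic cells Bhlhe40 was at 145, 129, 46.3, 67.9 and 90.3 CPM, and each pIVCL library was below sham (log2 fold change -1.08, SE 0.27, edgeR adjusted p = 0.0616). Hif1a, at 68, 74.9, 38.6, 43.4 and 44.1 CPM, was also below sham in each (log2 fold change -0.84, edgeR adjusted p = 0.333). Ldha was at 187, 281, 298, 293 and 511 CPM and was above sham in each. Of 31 members tested 0 passed by edgeR, against 0.674% of 6673 genes, and 0 by DESeq2. At an unadjusted p under 0.05 there were 4 (10.8% of all genes), Bhlhe40, Hif1a, Ddit4 and Ldha. Without overlap, 5 tested members lay above sham (18.9% of all genes) and 4 below (9.52%). Egln3 was too low to be tested.

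The other oxygen-sensing genes of dendritic cells, Epas1, Arnt, Vhl and Egln1, had log2 fold changes of -0.12, 0.18, -0.59 and 0.33, and the abundant enzymes Gapdh, Aldoa, Pgam1, Pkm and Gpi1 had -0.19, 0.24, 0.076, 0.32 and 0.14. Within batch 2021.3 alone Bhlhe40 passed in dendritic cells (log2 fold change -1.62, edgeR adjusted p = 0.00895), a comparison of the 63 cells of pIVCL 1 with sham in which that single library is assumed to vary like sham. Each library held 59 to 144 of these cells. Cluster 20, led by Xcr1, made up 32, 28, 38, 87 and 42 of the 69, 59, 63, 144 and 82 cells, a larger share in each pIVCL library than in sham. The part of this mixture in the Bhlhe40 difference was not tested.

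In T cells Ero1a was at 122, 154, 81.9, 70.4 and 103 CPM, below sham in each pIVCL library (log2 fold change -0.71, SE 0.25, edgeR adjusted p = 0.325). This was the opposite side of sham from that in stellate cells and fibroblasts; the difference between the classes was not tested. Of 24 members tested 0 passed by edgeR (0.0837% of 5976 genes did) and 0 by DESeq2. There were 3 at an unadjusted p under 0.05 (9.87% of all genes), Ero1a, Ddit4 and Gapdh. Without overlap, 3 tested members lay above sham (13.3% of all genes) and 3 below (11.7%), among them Pgam1 (log2 fold change -0.44). Epas1 and Egln3 were too low to be tested. Gapdh was at 532, 464, 505, 291 and 309 CPM, and its pIVCL 1 value lay between those of sham while pIVCL 2 and pIVCL 3 were lower. Without pIVCL 1, Gapdh (log2 fold change -0.76, edgeR adjusted p = 0.00807), Bhlhe40 and Eno1 passed. Hif1a, Arnt, Vhl and Egln1 had log2 fold changes of 0.078, 0.094, -0.40 and -0.43, and Aldoa, Ldha, Pkm, Gpi1 and Pgk1 had 0.089, 0.30, -0.0094, 0.046 and 0.10. The class mixed cluster 23, with 104, 155, 47, 66 and 70 cells, and cluster 36, with 38, 33, 31, 55 and 87. In cluster 23 alone, a selection made after the data were seen, the log2 fold change of Ero1a was -0.70 (edgeR adjusted p = 0.452).

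Ddit4 was above sham in every pIVCL library of 4 of the 5 tested classes. In T cells it was at 48.7, 90.8, 95.5, 116 and 146 CPM and in conventional dendritic cells at 72.3, 108, 198, 130.3 and 130.0 CPM, beside the endothelial and Kupffer values above. In the type 1 dendritic cluster alone, a selection made after the data were seen, the log2 fold change was 1.77 (edgeR adjusted p = 0.0816), against 0.67 in the class. Stellate cells and fibroblasts, at 16, 21.4, 12, 41.7 and 24.1 CPM, overlapped. The edgeR adjusted p of Ddit4 ran from 0.126 to 0.686 over the 5 classes, so it passed in none of them. All classes of a library share its preparation, and the classes are not independent replicates. Within a class 12.6 to 26% of all genes lay above sham in every pIVCL library. The share of all genes that did so in 4 classes was not counted. Ldha was likewise above sham in every pIVCL library of 4 classes (adjusted p from 0.238 to 0.615), with overlap in stellate cells and fibroblasts.

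**Figure D3:**
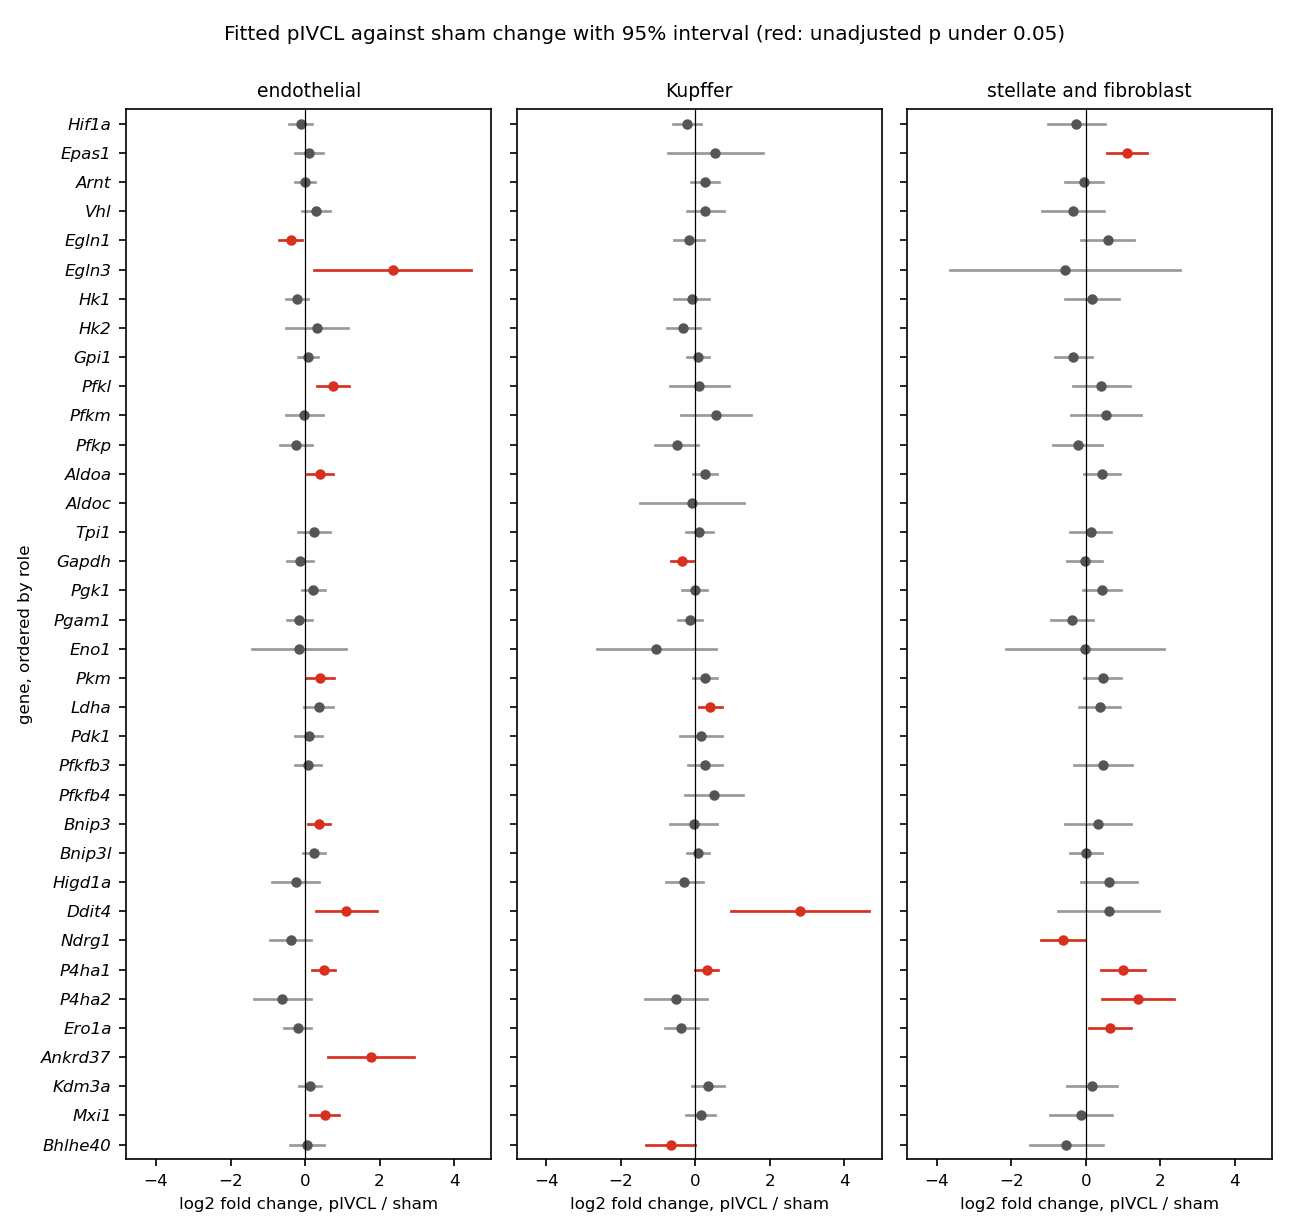
Fitted log2 fold change of pIVCL over sham with its 95% interval for each tested member in endothelial cells, Kupffer cells, and stellate cells with fibroblasts; red marks an unadjusted p under 0.05, and a gene without a point was too low to be tested. Ddit4 lies furthest right in Kupffer cells, and Epas1, P4ha1 and P4ha2 in stellate cells and fibroblasts; none passed after adjustment over all genes.

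The response in endothelial cells was compared directly with that in Kupffer cells of the same libraries. Of 36 members 0 differed between the classes at an adjusted p under 0.05 by edgeR (0.577% of 11965 genes did), 6 at an unadjusted p under 0.05 (11.5% of all genes), and 1 by DESeq2 (Ddit4, log2 difference -1.80, adjusted p = 0.0283). The edgeR log2 difference, endothelial minus Kupffer, was -1.72 for Ddit4 (adjusted p = 0.15), 0.70 for Pfkl (adjusted p = 0.335) and 0.78 for Bhlhe40 (adjusted p = 0.241). Eno1 had 0.85 (adjusted p = 0.11), uncertain for its copy. Hif1a, Epas1, Arnt, Vhl, Egln1 and Egln3 had 0.14, -0.32, -0.21, 0.069, -0.19 and 0.57. From the other pathway genes Hilpda, a lipid droplet protein induced by hypoxia, passed. It was at 24.1, 23.1, 32.4, 38 and 31.1 CPM in endothelial cells and at 48.5, 48.8, 27.8, 21.2 and 31.9 CPM in Kupffer cells, above sham in each pIVCL library in the first and below in the second (log2 difference 1.36, SE 0.24, edgeR adjusted p = 0.0369).

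Along the sinusoid members passed the test, in a comparison more sensitive than that between the groups. In simulated counts it found 74.6% of changes of 1.5 times, against 11.9% for pIVCL and sham in endothelial cells. The outcomes of these tests therefore do not show that zone differences are larger than group differences. Sinusoidal endothelial cells of each library were ranked by a score of 10 pericentral and 7 periportal marker genes, none of them a member, and divided into 3 equal ranges, periportal, middle and pericentral. The periportal and pericentral ranges were compared within libraries. They are ranges of a score and not cell types: 36.1 to 41.7% of cells lay within 0.25 SD of a boundary. Of 33 members tested by edgeR 8 passed, 5 higher in the pericentral and 3 in the periportal range, against 12.5% of 9506 genes (6.88% and 5.58%), and 13 had an unadjusted p under 0.05 (22.2% of all genes). DESeq2 passed 7. All 8 had the same direction in 5 of 5 libraries, which held for 14 of the 33 members and for 20.8% of all genes. Aldoc, Pfkfb4 and Ankrd37 were too low to be tested.

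Ddit4 was the member that differed most. In the periportal range it was at 60.5, 122, 229.8, 358 and 276 CPM and in the pericentral range at 14, 24.4, 37.6, 102 and 66.2 CPM. Means were 209 ± 119 and 48.9 ± 35.7, with 84.6 ± 57.7 in the middle range, and the log2 difference, pericentral minus periportal, was -2.13 (SE 0.095, edgeR adjusted p = 7.44e-14). Each library was higher on the periportal side, although the pericentral values of pIVCL 2 and pIVCL 3 exceeded the periportal value of sham 1.

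Epas1 was also higher on the periportal side, at 925, 836, 1157, 1176 and 1057 CPM in the periportal range and 651, 597, 835, 712 and 694 CPM in the pericentral range (log2 difference -0.54, SE 0.055, edgeR adjusted p = 1.52e-07). Bnip3l followed with 237, 239, 318, 361 and 308 and 201, 210.0, 265, 242 and 273 CPM (log2 difference -0.27, SE 0.063, edgeR adjusted p = 0.00382). Without pIVCL 2 the Bnip3l difference was -0.20 (adjusted p = 0.0513) and no longer passed. Its relative Bnip3 did not pass, at a log2 difference of 0.018.

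Higher on the pericentral side were 2 glycolytic enzymes and 3 other targets. Gapdh was at 215, 194, 215, 144 and 157 CPM in the periportal range and 226, 240.0, 278, 204 and 217 CPM in the pericentral range (log2 difference 0.34, SE 0.066, edgeR adjusted p = 0.000707). Pkm was at 172, 168, 169, 217 and 230.4 and 199, 185, 211, 291 and 284 CPM (log2 difference 0.29, SE 0.061, edgeR adjusted p = 0.00142). For both genes each library had the higher value on the pericentral side.

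Ndrg1 was at 183, 192, 207, 137 and 126 CPM in the periportal range and 250.1, 251, 256, 170.4 and 213 CPM in the pericentral range (log2 difference 0.44, SE 0.065, edgeR adjusted p = 2.88e-05). Bhlhe40 had means of 49 ± 17.5 and 67 ± 11.2 CPM (log2 difference 0.51, SE 0.10, edgeR adjusted p = 0.000821). P4ha2 was at 9.51, 9.17, 6.44, 6.03 and 5.87 and 20.5, 17.4, 15.6, 6.65 and 6.13 CPM, a clear gap in the 3 libraries of batch 2021.3 and a small gap in pIVCL 2 and pIVCL 3. Its log2 difference of 0.93 (SE 0.21, edgeR adjusted p = 0.00338) did not pass without sham 1 (0.80, adjusted p = 0.0794) or by DESeq2 (0.86, adjusted p = 0.114).

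The other enzymes stood on both sides. Of 14 glycolytic enzymes tested, 9 were fitted higher and 5 lower in the pericentral range, 2 passed (Gapdh and Pkm), and the median log2 difference was 0.11 against 0.0012 for all genes. Pgk1, phosphoglycerate kinase, was higher on the periportal side in all 5 libraries (log2 difference -0.21, edgeR adjusted p = 0.0704), the reverse of its neighbour in the pathway Gapdh, and did not pass. Hk2 was higher on the pericentral side in all 5 (log2 difference 0.89, edgeR adjusted p = 0.0691). The abundant Aldoa, at 292 ± 51.4 and 309 ± 69.8 CPM, had a log2 difference of 0.087 (interval -0.028 to 0.20).

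Of the oxygen-sensing genes other than Epas1 none passed in the zone comparison. Hif1a had a log2 difference of 0.03 (interval -0.15 to 0.21), Arnt 0.016 (-0.18 to 0.21), Egln1 0.10 (-0.061 to 0.26) and Egln3 0.34 (-0.58 to 1.26). The test of Hif1a and that of Epas1 were not compared with each other. Vhl was higher on the pericentral side in all 5 libraries (log2 difference 0.40, edgeR adjusted p = 0.129). Of 22 other pathway genes tested 2 passed, both higher in the pericentral range: Edn1, the vasoconstrictor endothelin (log2 difference 1.39, edgeR adjusted p = 2.1e-06), and Vegfa, the vascular growth factor (1.27, adjusted p = 2.2e-05).

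**Figure D4:**
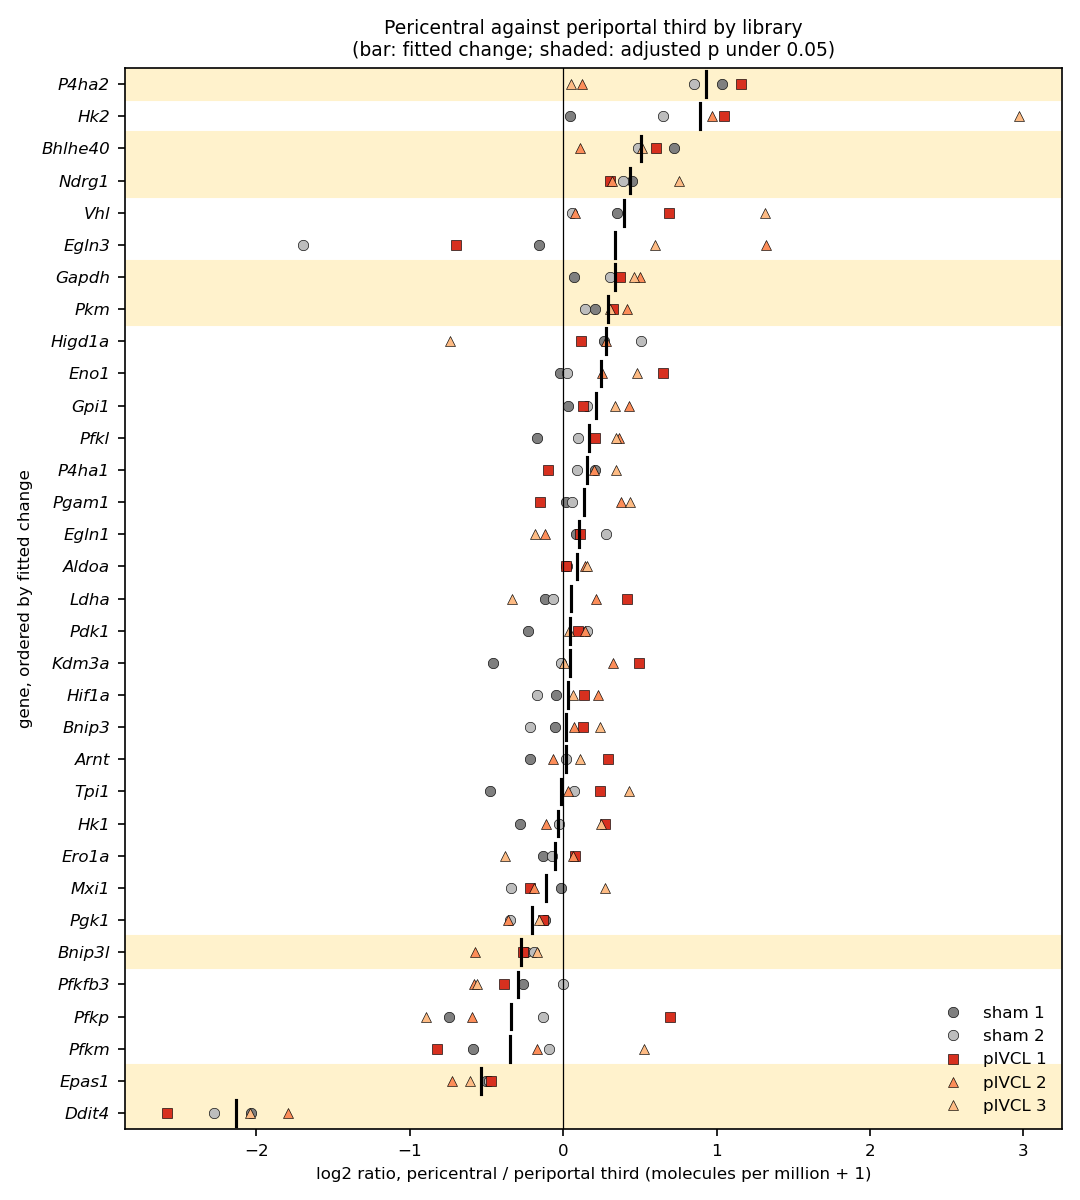
Log2 ratio of pericentral over periportal range (CPM + 1) in each library for the 33 tested members, ordered by the fitted change (black bar); shading marks the 8 members with an adjusted p under 0.05. Ddit4, Epas1 and Bnip3l lie left of 0 in all 5 libraries, and P4ha2, Bhlhe40, Ndrg1, Gapdh and Pkm right of 0.

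With the score divided into 5 equal ranges, from periportal to pericentral, the mean of Ddit4 was 256, 131, 82.5, 61.3 and 41.6 CPM and that of Epas1 1089, 923, 881, 768 and 646 CPM. In 3 of 5 libraries all 4 steps of either gene went down. Ndrg1 was at 152, 191, 215, 226 and 225 CPM, its last 3 values close together, whereas Gapdh, at 176, 198, 209, 205 and 247 CPM, was highest in the last. P4ha2 was at 6.28, 9.77, 11.2, 10.9 and 15.2 CPM and Bnip3l at 299.7, 282, 264, 252 and 231 CPM.

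The 3 ranges draw on different clusters, so the comparison was repeated within single clusters that had at least 20 cells in both ranges of a library, which gave 12 pairs of cluster and library. Ddit4 and Epas1 were higher in the periportal cells of the same cluster in 12 of 12 pairs and Bnip3l in 10. Bhlhe40 and P4ha2 were higher in the pericentral cells in 10 pairs, Gapdh in 9, Pkm in 8 and Ndrg1 in 6. Several P4ha2 pairs rest on very few molecules. In cluster 8 of pIVCL 1 it had 1 periportal and 1 pericentral molecule. In cluster 22 of pIVCL 2 it had 3 and 8, or 4.956 and 4.961 CPM. These pairs share libraries and were made only for the members that passed, from the same cells and ranges. The share of all genes with such directions was not counted. The pairs are therefore a description and no separate support for the calls. Median molecules per cell were lower in the periportal range (3822 to 4872) than in the pericentral range of the same library (4434 to 5312). Dissociation and immediate-early genes made up a mean of 0.443% of molecules in the periportal range and 0.536% in the pericentral range, and Kupffer markers 0.0192% and 0.0383%. Their part in the zone differences was not tested.

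**Figure D5:**
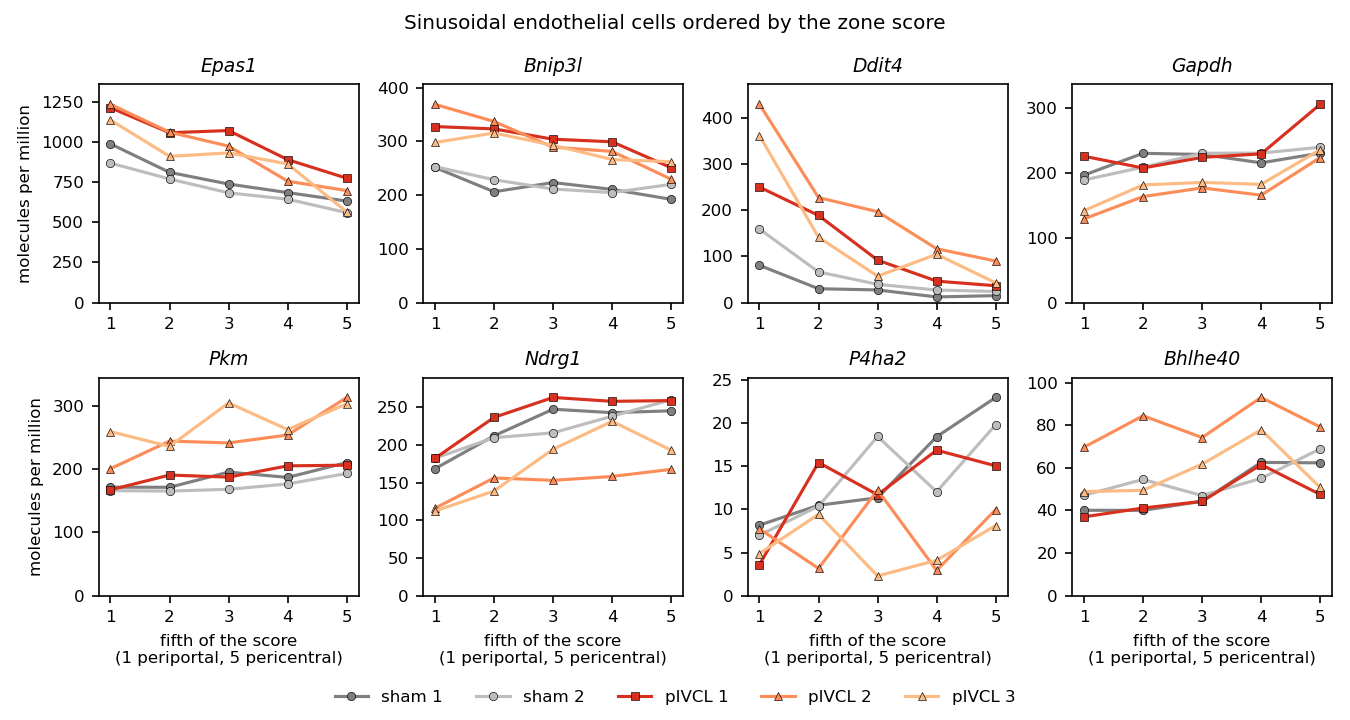
Level of the 8 members that passed, in CPM from 0, across 5 equal ranges of the zone score in sinusoidal endothelial cells of each library (grey sham, red and orange pIVCL). The means of Epas1 and Ddit4 step down from range 1 to range 5, from 1089 to 646 and from 256 to 41.6. Gapdh is highest in range 5 in each library. P4ha2 is highest there by its mean, but among the libraries only in sham 1 and sham 2.

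The zone difference was then compared between pIVCL and sham. Of 33 members 0 passed by edgeR and 0 by DESeq2, against 2.33% of 10147 genes by edgeR, and 3 had an unadjusted p under 0.05 (11.2% of all genes). These were Kdm3a, a histone demethylase (difference of differences 0.57, adjusted p = 0.132), Egln3 (1.77, adjusted p = 0.235) and Gapdh (0.25, adjusted p = 0.332), all towards a larger pericentral excess in pIVCL. Hk2 followed (1.25, adjusted p = 0.449). Hif1a, Arnt, Vhl and Egln1 had 0.27, 0.21, 0.31 and -0.21. For Ddit4 the value was 0.15 (interval -0.24 to 0.54) and for Epas1 -0.11 (interval -0.28 to 0.058). Egln3 was higher on the pericentral side in pIVCL 2 and pIVCL 3 and on the periportal side in the other 3 libraries. Its difference thus ran with batch. By edgeR Egln3 passed without pIVCL 1 (2.04, adjusted p = 0.0475). It also passed with doublets kept (2.07, adjusted p = 0.0499) and with fewer zone markers (2.45, adjusted p = 0.00992). Gapdh passed by edgeR with doublets kept (0.41, adjusted p = 0.0234) and at Leiden resolution 2 (0.38, adjusted p = 0.0234).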

How the data were processed

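Non-parenchymal liver cells were profiled with BD Rhapsody whole-transcriptome chemistry. Per the file headers, the authors' pipeline (version 1.9.1, reference GRCm39) gave each table, and its entries are molecule counts of 1 gene in 1 cell, not normalised. Which aligner and annotation it used is not given in the sources used here. A gene absent from a table was counted as 0. The genes, lists and markers were chosen with earlier results of these data known.

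Cells needed at least 500 molecules, at least 200 genes and at most 25% mitochondrial molecules. The 3% of cells per library with the highest scrublet score (516 cells) were removed, because the automatic threshold marked only 14. Scanpy 1.11.5 (2000 variable genes without the members and the other pathway genes, 30 components, 20 neighbours, Leiden resolution 1, no integration, no ambient RNA correction) gave 37 clusters, of which 9 (1398 cells) stayed unnamed for markers of a second class or for Clec4f in under 50% of a macrophage cluster's cells. The naming rules on a second class (at least 20% of that class's level), on Clec4f and on leaving large-vessel and cycling clusters out of the zones were set after the clusters were seen. Libraries shared 8 to 30 cell indices per pair, with 0 identical profiles. Classes with 20 cells in every library were tested and those with 10 described.

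Counts summed per library and class were tested with edgeR 4.0.16 (quasi-likelihood, robust, TMM, filterByExpr), adjusted by Benjamini-Hochberg over all genes of a comparison at 0.05; printed CPM are unscaled. Zone comparisons had library as a term. DESeq2 1.42.0 was an alternative, with others on normalisation, filters, batch, doublets, clustering, markers, pairing and single libraries. Tests were tried on counts simulated once per comparison; there the share of false calls was above the nominal level in every comparison, least so in the zone comparisons, so calls near the threshold (Slc2a1, Hilpda) are uncertain. Named were members that passed, oxygen-sensing genes, the 6 most abundant members and, where none passed, the 4 of lowest p; all other members were named after their values were seen. Intervals are 95% and cover the spread between libraries. Sequences are from RefSeq (GRCm38.p6), matched by symbol; no GRCm38 coordinate was joined to the counts.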

Additional observations from a re-analysis of the deposited data

Results flagged for a closer look

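Hilpda, from the list of other pathway genes, passed the direct test of a different response in endothelial and Kupffer cells. The log2 difference, endothelial minus Kupffer, was 1.36 (SE 0.24, edgeR adjusted p = 0.0369). In the counts simulated for this comparison 20 of 99 calls were false, so this call near the threshold is uncertain. No group had enough libraries for a search for outlying samples.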

How the results depend on the processing

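Counts of members that passed were followed in 7 comparisons over 113 alternatives, of which 94 stayed within 1.5 times the reported count and 19 did not. In endothelial cells (0 reported) 2 passed without a filter on low counts, 3 with DESeq2, 1 with the replicate block, and 0 to 13 when 1 library was left out, the 13 without pIVCL 1. In Kupffer cells (0) 1 passed with DESeq2 and 0 to 1 with 1 library left out. In stellate cells and fibroblasts (0) 2 passed without the filter, and 1 with DESeq2, with batch as a term and within batch 2021.3, where the lone pIVCL library is assumed to vary like the others; leaving out 1 library gave 0. In T and dendritic cells together (0) 1 passed without the filter, within batch 2021.3 and with the replicate block, and 0 to 3 with 1 library left out. The pericentral against periportal count of 8 ran from 7 to 9 with 1 library left out and reached 10 at Leiden resolution 2. The test of the zone difference between groups (0) gave 2 with doublets kept, 1 at Leiden resolution 2, 1 with fewer zone markers and 0 to 1 with 1 library left out. The endothelial against Kupffer test (0) gave 1 with DESeq2. Of 2041 values of single genes under alternatives 3 no longer passed and 40 newly passed; 125 had the other sign (39 genes and comparisons, Eno1 summed with Eno1b among them), of which 0 passed by the test of the setting, before or after. Same-numbered sham and pIVCL libraries correlated at -0.020 and -0.080 in endothelial cells and -0.050 and -0.027 in Kupffer cells. In stellate cells and fibroblasts the values were 0.065 and -0.15. The deviations of 2 sham libraries from their mean mirror each other, so these values cannot decide whether the numbers pair the libraries. The replicate block changed no other count by over 1.5 times. The causes of these shifts were not tested. With 2 against 3 libraries, modest differences between the groups could mostly not be detected in any class. Of changes of 1.5 times placed in the simulated counts, 11.9% were found in endothelial, Kupffer and T cells. In dendritic cells, and in stellate cells and fibroblasts, 0% were found. These classes held 59 to 144 and 80 to 342 cells per library. Of changes of 2 times, 49.3% were found in endothelial and Kupffer cells. The endothelial against Kupffer test found 4.48% of changes of 1.5 times.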
